A study of Saccharomyces cerevisiae with 160 samples.

Results

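The arrest of *cdc8* cells, which stall while copying their DNA, was compared with the arrest of Cdc20-depleted cells, which stop with copied chromosomes in metaphase. Of the 160 arrays of the series, 20 were used, chosen by strain and time alone, with 5 arrays in each of 4 cultures. They covered 180 to 260 min in 2 cultures of strain cdc8 and 200 to 280 min in 2 cultures of strain cdc20. RNA was hybridised to Affymetrix Yeast 2.0 arrays, and levels are given throughout as log2(intensity + 1), averaged over the 5 arrays of a culture. Both strains were MATa haploids in the BF264-15DU background, and both were collected in G1 by elutriation and followed in YEPDextrose with sorbitol. Strain cdc8 carried cdc8-ts, a temperature-sensitive allele of thymidylate kinase, and was held at a temperature at which that enzyme fails. Strain cdc20 carried bar1, cdc20::LEU2, Pgall-CDC20::ADE2 and CFP-TUB1::URA3, so that its remaining copy of *CDC20* was driven by a galactose promoter and was shut off when cells were moved from galactose to dextrose. A further strain, cdc8cdc20, joined the cdc8ts allele to bar1 and the same *CDC20* and *TUB1* constructs, and its single culture, from 198 to 270 min, is given beside the comparison. The study describes a release into the restrictive temperature for strains cdc8 and cdc8cdc20, and no such step for strain cdc20. The 2 strains compared thus differ in the point of arrest, in the constructs and in the sugar used before the course. These cannot be told apart from the comparison alone, nor can any difference in temperature.

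Thymidylate kinase supplies a precursor of dTTP, and when replication forks stall without it the kinases Mec1, Rad53 and Dun1 hold the cell before mitosis and relieve repression of the ribonucleotide reductase genes. Cdc20 directs the anaphase-promoting complex to securin and the mitotic cyclins, so that cells without it keep active mitotic kinase and a short spindle. In the normal cycle the factors SBF and MBF switch on genes at G1/S and a complex of Mcm1 and forkhead proteins named SFF switches on the *CLB2* cluster in G2/M.

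Of 5716 yeast probe sets, 1091 were higher in *cdc8* cells (19.1%) and 1886 were lower (33.0%), so that 52.1% were called at an adjusted p of 0.05 (limma on culture means of all strains, Benjamini-Hochberg over all probe sets). The fit also holds the cultures of strains cse4 (bar1, Pgal-cse4-353::TRP1 and CFP-TUB1::URA3) and rad53 (cdc8cdc20 with rad53-1), which serve only to estimate the spread. More probe sets were lower, but the largest differences were on the higher side. A difference of at least 1 on the log2 scale was called for 415 probe sets in the higher direction and 541 in the lower, and one of at least 3 for 47 and 4. The median difference over all probe sets was -0.16, and for 2970 probe sets (52.0%) none of the 10 arrays of one strain overlapped with those of the other. Replicate cultures had an r² of 0.992 (*cdc8*) and 0.983 (*cdc20*) across genes, which are not independent replicates. The number of calls rested on having 2 cultures in each strain. With 1 of the 4 left out it was between 639 and 755 higher and between 992 and 1270 lower, fewest without *cdc8* replicate 1. Without *cdc8* replicate 2 it was 685 and 1150, and without *cdc20* replicate 2 it was 727 and 1116. List counts given below with 1 of these cultures left out are to be read beside these smaller totals. A permutation of 2 cultures against 2 cannot give an exact p under 0.333, and no source states that the cultures came from separate colonies, so the p-values cover the spread between these cultures.

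**Figure D1:**
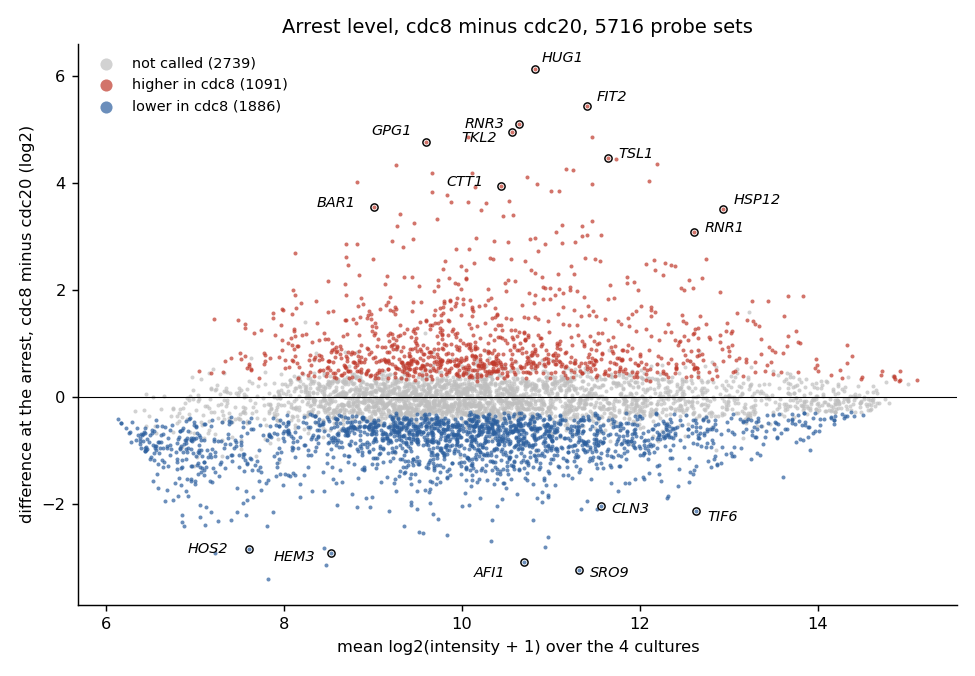
Each point is 1 of 5716 probe sets, with its mean log2(intensity + 1) over the 4 cultures on the x axis and the difference at the arrest, cdc8 minus cdc20 (log2), on the y axis. Called probe sets are red (1091 higher in cdc8) or blue (1886 lower), others grey, and circles mark named genes, of which HUG1 lies highest at 6.13.

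The genes that mark the strains were read first. *CDC20* was at 8.95 and 8.86 in the *cdc8* cultures and at 8.73 and 8.82 in the *cdc20* cultures, a difference of 0.13 (SE 0.14, adjusted p = 0.476). The array reads the transcript and not the protein, and at the arrest this transcript did not separate the strain with the native promoter from the one whose promoter was shut off. At 60 min it was at 8.0 and 8.15 against 8.81 and 8.92 (difference -0.79, adjusted p = 0.0031). *CDC8*, whose allele changes the protein, was at 10.15 and 10.22 against 10.49 and 10.43, which did not pass the test (adjusted p = 0.124). *BAR1*, which encodes the protease that degrades alpha factor and is deleted in strain cdc20, stood at 10.81 and 10.79 in *cdc8* cells, at 7.04 and 7.44 in *cdc20* cells and at 6.45 in cdc8cdc20. The order is that of the labels, with a difference of 3.56 between the strains compared (SE 0.31). *GAL1*, the galactokinase gene, was at 8.24 and 8.38 against 11.36 and 11.55 at 60 min, soon after *cdc20* cells had left galactose, and at 8.20 and 8.14 against 9.06 and 9.50 at the arrest, so that the difference went from -3.14 to -1.11. *URA3* was at 10.51 and 10.43 in *cdc8* cells and 12.59 and 12.55 in *cdc20* cells, but at 9.49 in cdc8cdc20, which carries a *URA3* mark too. *LEU2* was at 11.69 and 11.55 against 10.63 and 11.23, *ADE2* at 11.66 and 11.71 against 11.43 and 11.52 and *TUB1*, the alpha-tubulin gene tagged in strain cdc20, at 13.47 and 13.56 against 12.74 and 13.01. The calls of *LEU2* and *TUB1* were each lost without *cdc20* replicate 1 and without either *cdc8* culture. All 7 markers of MATa cells were measured, and their levels ran from 8.42 to 13.53 in *cdc8* cells and from 7.04 to 14.38 in *cdc20* cells, with the a-factor gene *MFA1* and the receptor gene *STE2* at 12.99 or above in all 4 cultures and *ASG7* at 9.29 or below. The 4 markers of alpha cells ran from 6.86 to 9.85 and from 7.15 to 10.92, with the receptor gene *STE3* at or below 7.49 in all 4 cultures and the agglutinin gene *SAG1* at 9.85 and 9.73 against 10.60 and 10.92. The 20 arrays overlapped between the strains for *CDC20*, *LEU2* and *ADE2*. For the called genes other than *LEU2* whose culture levels are given here and in what follows, they did not. In bulk RNA a change in the share of cells and a change in RNA per cell cannot be told apart, here and in all results that follow.

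The largest difference of all was that of a replication stress gene, and the ribonucleotide reductase genes were higher in *cdc8* cells with it. *HUG1*, a small protein that binds and inhibits ribonucleotide reductase, was at 14.04 and 13.73 in the *cdc8* cultures and 7.54 and 7.97 in the *cdc20* cultures, a difference of 6.13 (SE 0.18, adjusted p = 5.86e-06), and cdc8cdc20 stood at 14.01. In linear units its arrays ran from 7935 to 19510 in *cdc8* cells and from 159 to 301 in *cdc20* cells, so the lowest array of one strain lay far above the highest of the other. *RNR3*, the inducible large subunit of ribonucleotide reductase, was at 13.31 and 13.07 against 7.98 and 8.21, higher by 5.10 (SE 0.28). The main large subunit *RNR1* was at 14.11 and 14.20 against 10.92 and 11.21, higher by 3.09 (SE 0.15, adjusted p = 2.3e-05). The small subunits *RNR2* and *RNR4* were already among the brightest genes of *cdc20* cells, at 12.82 and 12.96 and at 12.67 and 12.78, and were higher in *cdc8* cells by 1.88 and 1.89. *PLM2*, a forkhead-associated protein of chromatin, was higher by 2.80, and the checkpoint kinase genes *RAD53* and *DUN1* by 0.84 and 0.46. *DUN1* lost its call when any of 3 cultures was left out (*cdc20* replicate 2 or either *cdc8* culture). In all, 18 of 38 measured genes of the damage and replication stress list were called higher and 6 lower, with a median of 0.36, against 19.1%, 33.0% and -0.16 over all probe sets.

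Of the 6 members of that list that were lower, 4 act in the bypass and repair of damage at forks. *RAD18*, the ubiquitin ligase that starts post-replication repair, was at 7.37 and 7.61 against 8.79 and 9.13. The translesion polymerase genes *REV1*, *REV7* and *REV3* were lower too, with differences of -1.07, -0.76 and -0.55. The other two were the kinetochore gene *MCM21* (-0.73) and *MEI5* (-0.67), of meiotic recombination. *RAD54*, a motor protein of recombination, was higher by 0.89, while *RAD52* (-0.22) and *RAD50* (0.42) did not pass the test. *CTT1*, *DDR2* and *DDR48* stand in this list and in that of general stress. The lower genes were 15.8% of the list, under the 33.0% over all probe sets. The higher genes were 47.4%, over the 19.1% of all probe sets, with *HUG1* and the reductase genes among them.

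**Figure D2:**
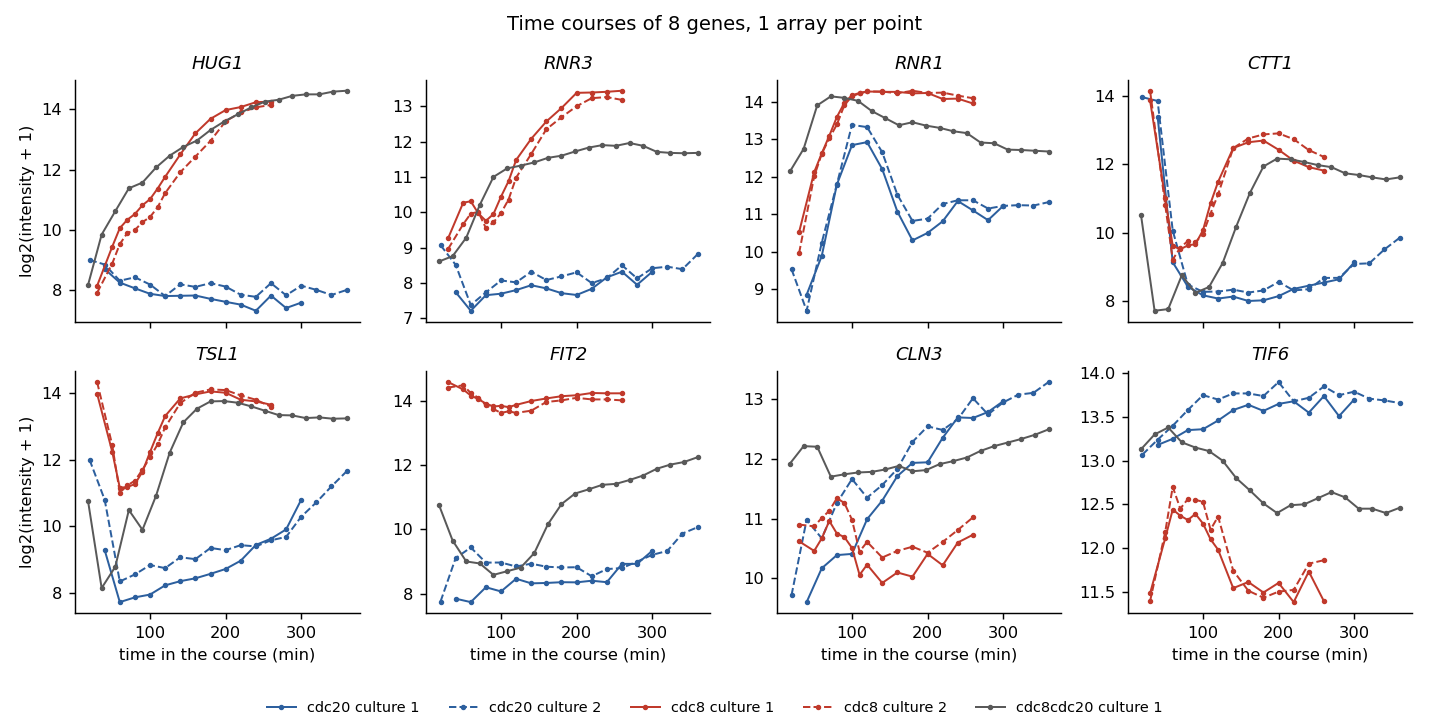
Log2(intensity + 1) of 8 genes against time in the course in minutes, 1 array per point, for the 2 cdc8 cultures (red), the 2 cdc20 cultures (blue) and the cdc8cdc20 culture (grey). HUG1 climbs in the cdc8 cultures to 14.25 and 14.14 and stays at or below 9.01 in both cdc20 cultures, whereas FIT2 is at or above 13.63 in both cdc8 cultures from the first array.

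These genes reached the arrest along different courses. *HUG1* was at 8.15 and 7.92 in the *cdc8* cultures at 30 min, at 11.02 and 10.43 at 100 min and at 14.25 and 14.14 at 260 min, and it was still climbing within the window used as the arrest. In the *cdc20* cultures it went from 8.26 and 8.32 at 60 min to 7.42 and 7.84 at 280 min. The difference between the strains grew by 4.62 from 60 min to the arrest (SE 0.16, adjusted p = 8.87e-05). *RNR1* climbed in both strains. In *cdc20* cells it was at 12.92 and 13.32 at 120 min and then came down to 10.30 and 10.82 at 180 min, whereas in *cdc8* cells it reached 14.27 in both cultures at 120 min and was at 13.95 and 14.09 at 260 min. Within the *cdc20* window it rose again, to 11.35 and 11.37 at 240 min, and was at 10.84 and 11.15 at 280 min. The study reports that part of the periodic genes keep oscillating in Cdc20-depleted cells, so a window mean can average over a wave. The arrest difference of *RNR1* thus sets a level held near its peak against one that had passed its first peak and still varied. For *RNR1* the difference had been 2.55 at 60 min, with 12.62 and 12.61 in *cdc8* cells against 9.89 and 10.24. The *cdc20* cultures were at 12.84 and 13.38 at 100 min. *CTT1*, cytosolic catalase, began high in both strains, at 13.88 and 14.16 in *cdc8* cells at 30 min and at 13.40 and 13.86 in *cdc20* cells at 40 min. It was back near 9 or 10 by 60 min in all 4 cultures, and it then went up again in *cdc8* cells, to 12.70 and 12.88 at 180 min, with 8.02 and 8.31 in *cdc20* cells at that time. Over all probe sets, the change from 60 min to the arrest was called more positive in *cdc8* than in *cdc20* cells for 1208 (21.1%) and more negative for 1823 (31.9%). The more positive made up 39.9% of these calls, and 49.9% after quantile normalization. Without *cdc8* replicate 1 the calls were 677 and 1212, and without *cdc8* replicate 2 they were 737 and 1185. At 60 min itself 58.0% of probe sets differed between the strains, so an arrest difference is read here beside the early one. The strains may stand at different points of the cycle at 60 min. The part of this in the early differences and in the changes was not tested.

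Genes of deoxynucleotide supply were called higher more often than probe sets as a whole, and lower less often. Of 17 genes, 7 were higher (41.2%) and 4 lower (23.5%), with a median of 0.03. Over all probe sets these were 19.1%, 33.0% and -0.16. *CDC21*, thymidylate synthase, which makes the substrate of the Cdc8 enzyme, was at 10.52 and 10.38 against 8.92 and 8.93 (difference 1.53, SE 0.12), and had differed by 1.73 at 60 min. *YNK1*, nucleoside diphosphate kinase, which acts after Cdc8, was higher by 1.14, and *WTM1*, which anchors the small reductase subunits in the nucleus, by 2.14. On the lower side were *DUT1*, the dUTPase (-0.92), *DCD1*, dCMP deaminase (-1.01), *GUK1*, guanylate kinase (-0.44), and *WTM2*, the paralog of *WTM1* (-1.04). *SML1*, which encodes an inhibitor of the reductase, differed by -0.14 (SE 0.15), which did not pass the test.

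Among G1/S genes the MBF targets were called higher more often than the SBF targets, but the list medians were alike. No test compared the lists. Of 42 MBF targets, 17 were called higher (40.5%) and 6 lower (14.3%), with a median of 0.27. Of 34 SBF targets, 8 were called higher and 8 lower (23.5% each), with a median of 0.25. The shares over all probe sets were 19.1% and 33.0%. The MBF count rested on 3 of the cultures, as 10 were called higher with *cdc20* replicate 2 or either *cdc8* culture left out. The SBF counts were 3 to 6 higher and 2 to 5 lower with any 1 of the 4 cultures left out, and 13 and 9 without either *cse4* culture. In the window of the last 5 arrays of each culture the SBF counts were 4 and 9 and their median was -0.01. *MCD1*, the cleaved subunit of cohesin, was at 10.66 and 10.60 against 9.10 and 8.79, and *NRM1*, which represses MBF targets after G1/S, at 10.32 and 10.47 against 9.02 and 9.22. At 60 min the differences had been -0.54 (adjusted p = 0.0283) and -0.39 (adjusted p = 0.0815). *SWE1*, the kinase that inhibits mitotic CDK, was higher by 1.27, and the cohesin partners *PDS5* and *IRR1* by 1.15 and 0.93. The S-phase cyclin genes *CLB5* and *CLB6*, also MBF targets, were lower (-0.97 and -0.97), as was *MRC1*, the fork mediator of the checkpoint (-0.70). The call of *CLB6* was lost without *cdc20* replicate 2 and without either *cdc8* culture. Of the SBF targets, *SCW10*, a cell wall glucanase, was at 11.23 and 11.54 against 13.24 and 13.25 and the bud site gene *BUD9* at 8.64 and 8.60 against 7.68 and 7.67. The G1 cyclin gene *CLN1* was higher by 0.79 and *CLN2* by 0.42. *CLN2* was called (adjusted p = 0.0341) but lost the call when any of 5 cultures was left out, 3 of them of these strains (both *cdc20* cultures and *cdc8* replicate 2). *YOX1*, a repressor of early cell-cycle genes, was at 8.69 and 8.78 against 8.18 and 8.63 and did not pass the test, and its paralog *YHP1* was higher by 1.56. *SWI4*, the DNA-binding subunit of SBF, was lower (-0.98), whereas *MBP1*, that of MBF, differed by 0.33 (adjusted p = 0.184).

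Histone genes were higher at the *cdc8* arrest, and most of that difference arose after 60 min. Of the 8 measured, 7 were called higher and 0 lower (median 1.17), and their median at 60 min was -0.37. *HHT1*, one of the genes for histone H3, was at 13.28 and 13.22 against 12.03 and 11.93 at the arrest and at 12.35 and 12.42 against 13.32 and 13.37 at 60 min, so that the sign turned (change 2.23, SE 0.12, adjusted p = 0.000117). The linker histone gene *HHO1* was higher by 1.83 and *HTB2*, for H2B, by 1.62. In cdc8cdc20 *HTB2* was at 11.19, the level of *cdc20* cells (11.28 and 11.36) and not of *cdc8* cells (12.84 and 13.04) (cdc8 minus cdc8cdc20 1.75, adjusted p = 0.00872). Every p against cdc8cdc20 rests on 1 culture of it, which the fit takes to vary like the cultures of the other strains. *HTA1* differed by 0.24 (SE 0.24) and was not called. The probe sets used for *HTA2* and *HHF1* are marked as shared with near-identical sequence, and the paired copies of each histone gene can cross-hybridise, so values for single copies are uncertain.

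Nearly all general stress genes were higher at the *cdc8* arrest. These targets of Msn2 and Msn4, the factors that answer starvation, heat and oxidants, were called higher in 31 of 33 cases and lower in 0, with a median of 2.59, and the count was 29 to 32 with any culture left out. Their differences ran from 0.16 to 4.47. *TSL1*, a regulatory subunit of the trehalose synthase complex, was at 13.85 and 13.90 against 9.33 and 9.48 (difference 4.47, SE 0.36), and *PGM2*, phosphoglucomutase, at 13.38 and 13.37 against 9.10 and 9.15. *CTT1* was at 12.20 and 12.63 against 8.42 and 8.51, and *HSP12*, a small membrane-bound stress protein, at 14.66 and 14.72 against 11.27 and 11.07. All 10 arrays of each strain stayed apart for these 4 genes, as they did for 52.0% of all probe sets. The 2 members not called were *GPD1* (0.16), which makes glycerol phosphate, and *RTC3* (0.57).

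Storage carbohydrate genes moved with them. Of 21 trehalose and glycogen genes, several of which are in the stress list too, 17 were higher and 1 lower (median 1.75). *GPH1*, glycogen phosphorylase, was higher by 3.93, *GDB1*, the debranching enzyme, by 2.90, *GSY2*, glycogen synthase, by 2.20 and *NTH1*, neutral trehalase, by 2.05, so genes of synthesis and of breakdown were both higher. The regulatory subunit gene *PIG1* was the lower one (-0.73). Next to these stood several of the largest differences of all. *TKL2*, a transketolase, was at 12.92 and 13.18 against 8.0 and 8.17, and *SOL4*, a lactonase of the same pentose phosphate pathway, at 12.69 and 12.88 against 8.63 and 8.72. *BDH2*, an alcohol dehydrogenase homolog, was higher by 4.86, *GPG1*, a subunit of the glucose-sensing G protein, by 4.77, *HPF1*, a cell wall mannoprotein, by 4.46, and *HXK1*, a hexokinase, by 4.03.

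**Figure D3:**
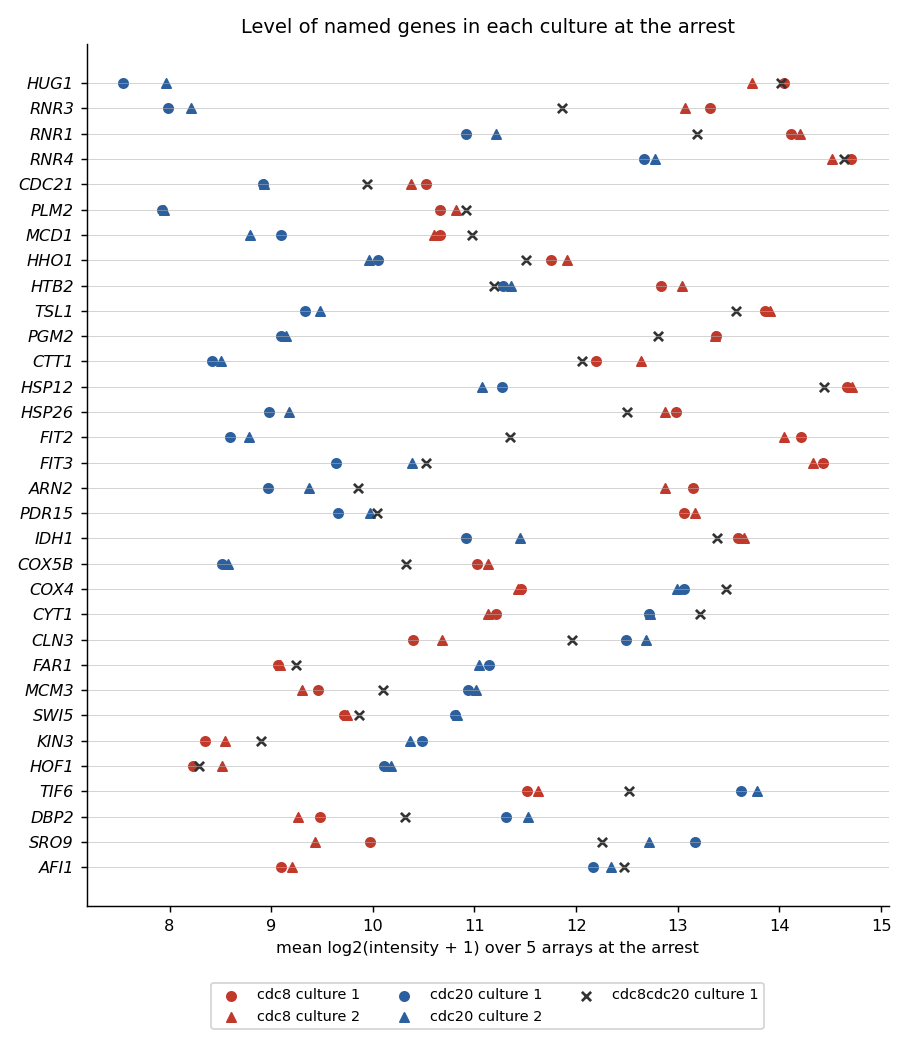
Mean log2(intensity + 1) over 5 arrays at the arrest (x axis) for 32 named genes, with 1 symbol per culture: cdc8 red, cdc20 blue, cdc8cdc20 a black cross. For each gene shown the 2 cultures of a strain lie closer to each other than to those of the other strain, and the cross lies near cdc8 for HUG1 and TSL1 and near cdc20 for FIT3, PDR15 and AFI1.

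The time at which the stress genes separated was not the same for all members. *TSL1* was already higher in *cdc8* cells by 3.05 at 60 min and *TPS1*, trehalose phosphate synthase, by 3.04, whereas *CTT1* (-0.18, adjusted p = 0.635) and *HSP12* (0.07, adjusted p = 0.716) did not differ then beyond the spread between cultures. *CTT1* was still falling in *cdc20* cells at 60 min, and at 80 min it was at 9.63 and 9.76 in *cdc8* cells against 8.42 and 8.48. The list median went from 1.58 at 60 min to 2.59. *FMP16*, a mitochondrial protein of unknown function, went from -1.66 to 4.18, a change of 5.85 (SE 0.24) that was the largest among the 203 named genes described with the processing. The heat shock list, which shares *HSP12*, *HSP26*, *HSP42* and *SSA4* with the stress list, had 12 of 27 genes higher and 2 lower (median 0.45). These were 44.4% and 7.41%, beside 19.1% and 33.0% over all probe sets. The higher genes of the heat shock list included the holdases *HSP26* (3.85) and *HSP42* (2.57) and the nucleotide exchange factor *SSE2* (2.91). Of 19 glycolysis genes 12 were higher and 0 lower (median 0.37), but 5 or 6 were called with any of the 4 cultures left out, and 8 after quantile normalization. The largest among them were the minor isozymes *PYK2* (1.65) and *GLK1* (1.24). The hexose transporter gene *HXT5*, used in slow growth, was at 10.89 and 11.16 against 7.38 and 7.80, and cdc8cdc20 was at 8.02.

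**Figure D4:**
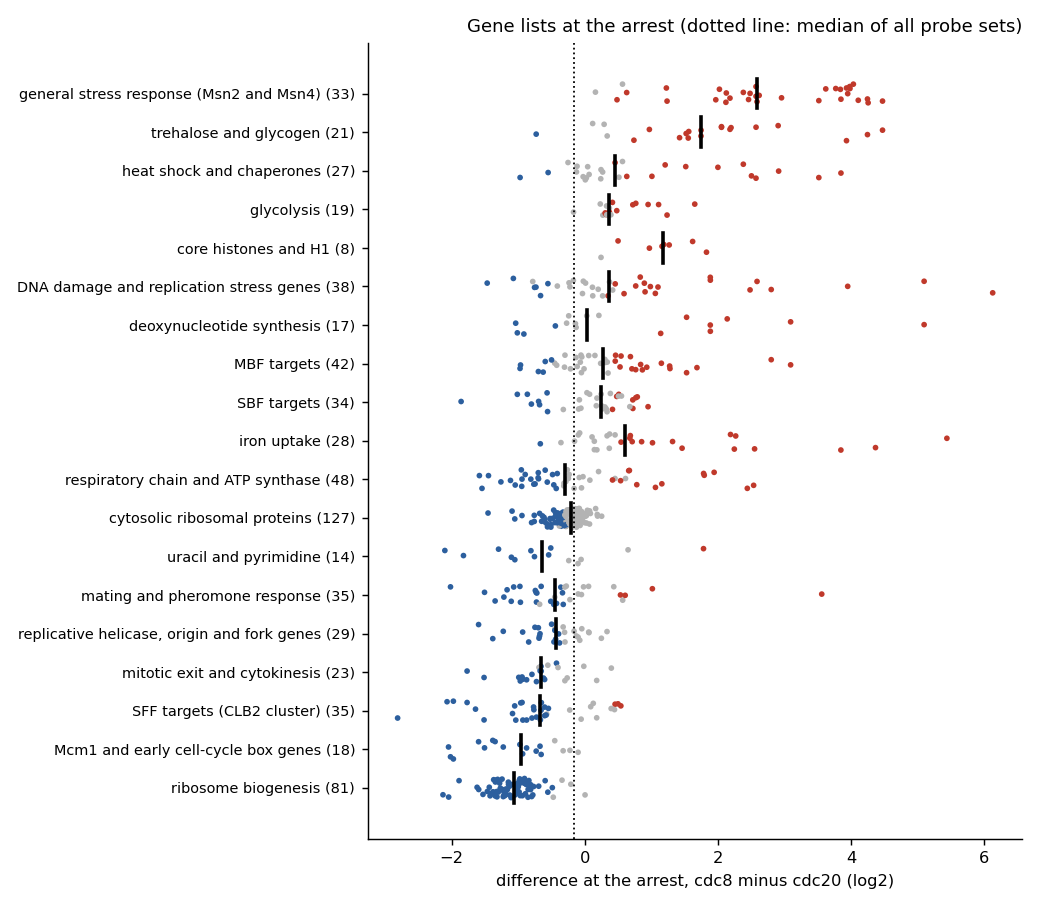
Difference at the arrest, cdc8 minus cdc20 (log2, x axis), for each measured gene of 19 lists, whose number of measured genes is in parentheses. Red points were called higher, blue lower and grey not called, a black bar is the list median, and the dotted line is the median of all probe sets (-0.16). The general stress list has no blue point and the ribosome biogenesis list no red one.

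Iron genes differed already at 60 min. Of 28 genes of iron uptake, 15 were higher at the arrest (53.6%, beside 19.1% over all probe sets) and 1 lower (3.57%, beside 33.0%). Their median was 0.61, and 1.30 at 60 min, and 9 were called higher without *cdc20* replicate 1 or without *cdc8* replicate 1. All 7 genes for siderophore uptake and its cell wall mannoproteins were higher. *FIT2*, one of these mannoproteins, was at 14.21 and 14.05 against 8.59 and 8.79 (difference 5.44, SE 0.31), *FIT3* at 14.43 and 14.33 against 9.64 and 10.39, and the transporter gene *ARN2* at 13.15 and 12.88 against 8.96 and 9.37. Their differences at 60 min were 5.63, 4.39 and 4.10, and their changes from 60 min to the arrest were -0.19, -0.03 and -0.25, none of which passed the test. The change of *FIT2* was 0.57 without *cdc20* replicate 1 and was then called (adjusted p = 0.0112). Over the 28 genes the change was called more negative for 11 and more positive for 3 (median -0.66). In cdc8cdc20, which arrests with the same allele, *FIT2* was at 11.34, *FIT3* at 10.53 and *ARN2* at 9.86, so that *cdc8* cells were higher by 2.78, 3.85 and 3.16 (adjusted p = 0.00872, 0.00329 and 0.00519). Of 9 genes of the reductive route, 4 were higher and 1 lower at the arrest, and their change from 60 min was called negative for 6 (median -1.16), against 1 of the 7 siderophore genes (median -0.25). No test compared the groups. The ferroxidase gene *FET3* was at 13.20 and 13.32 against 12.79 and 12.99 (0.37, adjusted p = 0.21). *TIS11*, which destabilises messages of iron-using proteins, was higher by 2.27.

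Genes of the mitochondrial respiratory chain were split by role. Of 48, 12 were higher (25%, beside 19.1% over all probe sets) and 22 lower (45.8%, beside 33.0%), with a median of -0.30. The 22 were all among the 36 genes for subunits of the electron transport chain and ATP synthase, of which 0 were called higher. *COX4* and *COX5A*, subunits of cytochrome oxidase, were at 11.45 and 11.43 against 13.06 and 13.00 and at 11.42 and 11.56 against 12.93 and 12.95. *CYT1*, cytochrome c1, was lower (-1.54), and so was *CYC1*, the main cytochrome c (-1.26). The 12 that were higher were all 10 enzymes of the citric acid cycle in the list and the alternative isoforms *COX5B* and *CYC7*, which are known as the hypoxic forms. *IDH1*, a subunit of isocitrate dehydrogenase, was at 13.59 and 13.65 against 10.91 and 11.44, *ACO1*, aconitase, at 14.34 and 14.34 against 12.55 and 12.56, and *COX5B* at 11.02 and 11.13 against 8.51 and 8.57. With 1 culture left out, 7 were called higher without *cdc20* replicate 1 or either *cdc8* culture, and 14 were called lower without *cdc8* replicate 1. The chain subunits had been lower at 60 min too (median -0.99), and in cdc8cdc20 they stood above *cdc20* cells (median 0.59). *CYT1* differed between *cdc8* and cdc8cdc20 by -2.04 (adjusted p = 0.00212) and *COX4* by -2.03 (adjusted p = 0.00531), whereas the cycle gene *IDH1* differed by 0.24 (adjusted p = 0.739). Of all probe sets, 5.91% were called between *cdc8* and cdc8cdc20, a comparison added after the data were seen.

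The genes of G2/M were lower at the *cdc8* arrest. Of 35 SFF targets of the *CLB2* cluster, 24 were lower (68.6%, beside 33.0% over all probe sets) and 3 higher (8.57%, beside 19.1%), with a median of -0.67. When any 1 of the 4 cultures was left out, 16 to 19 were lower and 1 or 2 higher, with 16 lower without *cdc8* replicate 1. *KIN3*, a kinase related to NIMA, was at 8.35 and 8.54 against 10.48 and 10.36 (difference -1.98, SE 0.16), and *HOF1*, which joins the septum to the actin ring, at 8.23 and 8.52 against 10.11 and 10.18. *SWI5*, the transcription factor of M/G1 genes, was at 9.71 and 9.75 against 10.81 and 10.83 (difference -1.09, SE 0.23, adjusted p = 0.00636), and the polo kinase gene *CDC5* differed by -0.66 (adjusted p = 0.00324). The mitotic cyclin gene *CLB2* itself was at 9.67 and 9.68 against 10.38 and 10.11, which did not pass the test (adjusted p = 0.0589), nor did *CLB1* (0.40, adjusted p = 0.232) or *NDD1*, the coactivator of SFF (-0.33, adjusted p = 0.118). *FKH1* was higher by 0.65, a call that was lost without *cdc20* replicate 1 and without *cdc8* replicate 2. The SFF median had been -0.66 at 60 min, and the change from then to the arrest was called more positive for 6 targets and more negative for 8. The list median was therefore about as low at 60 min as at the arrest.

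Genes of the exit from mitosis followed. Of 23, 15 were lower and 0 higher (median -0.66). *CDC14*, the phosphatase of mitotic exit, was at 9.82 and 9.92 against 10.81 and 10.92, and *NET1*, which holds it in the nucleolus, at 11.06 and 10.97 against 11.92 and 12.05. *BNS1* and *SPO12*, a pair of paralogs of the early anaphase release network, were lower (-1.51 and -0.87). The daughter-specific repressor gene *ASH1* was at 8.60 and 8.63 against 10.41 and 10.35, the chitinase gene *CTS1* at 11.30 and 11.60 against 9.96 and 9.93 and *RME1*, a repressor of meiosis, at 10.14 and 10.24 against 8.06 and 8.11. *SIC1*, the inhibitor of B-type cyclin kinase, was at 8.49 and 8.61 against 8.39 and 8.38 and did not pass the test (adjusted p = 0.259). *PDS1*, securin, the substrate by which Cdc20 starts anaphase, was at 10.09 and 9.71 against 8.15 and 8.37, higher by 1.64 (SE 0.15). Of 24 genes of the spindle checkpoint, securin, separase and the anaphase-promoting complex, 3 were higher and 5 lower, and of 52 kinetochore and spindle genes 7 were higher and 12 lower, both under the shares over all probe sets. With any 1 of the 4 cultures left out the first counts were 2 and 3. The kinetochore and spindle counts were then 3 and 3 without *cdc8* replicate 1, 4 and 6 without *cdc8* replicate 2, 4 and 7 without *cdc20* replicate 1 and 4 and 5 without *cdc20* replicate 2.

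The genes that Mcm1 drives at the end of mitosis separated late. Of 18 such genes with an early cell-cycle box or Mcm1 sites, 14 were lower and 0 higher (median -0.95), although their median at 60 min had been 0.17. *CLN3*, the first G1 cyclin, was at 10.40 and 10.68 against 12.49 and 12.68 (difference -2.05, SE 0.16, adjusted p = 0.000122). In *cdc20* cells it went from 10.17 and 10.67 at 60 min to 12.78 and 12.74 at 280 min, and in *cdc8* cells from 10.67 and 11.01 to 10.73 and 11.02 at 260 min. The difference was thus made by a climb in *cdc20* cells with no like climb in *cdc8* cells. *FAR1*, the CDK inhibitor of the pheromone response, was at 9.07 and 9.08 against 11.14 and 11.04. Of *MCM2* to *MCM7*, which encode the replicative helicase, 5 of 6 were lower. *MCM3* was at 9.46 and 9.30 against 10.93 and 11.02 and *MCM7* at 10.13 and 9.98 against 11.11 and 11.45, but at 60 min both had been higher in *cdc8* cells, by 0.76 and 1.06, and *MCM4* differed by -0.33 at the arrest without passing the test. Over the 29 genes of the helicase, origins and forks, 16 were lower (55.2%, beside 33.0% over all probe sets) and 0 higher. With any of the 4 cultures left out that count was 8 to 10, fewest without *cdc8* replicate 1.

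Ribosome biogenesis genes were lower almost without exception. Of 81, 77 were lower and 0 higher, with a median of -1.06, and 63 to 78 were called lower with any culture left out. *TIF6*, which keeps new large subunits apart from small ones, was at 11.52 and 11.62 against 13.62 and 13.78 (difference -2.13, SE 0.30), the RNA helicase gene *DBP2* at 9.48 and 9.26 against 11.31 and 11.53, and *CBF5*, the pseudouridine synthase of ribosomal RNA, at 11.40 and 11.32 against 13.26 and 13.23. Subunits of RNA polymerase I were lower too, such as *RPA34* (-1.53) and *RPA135* (-0.91). The 4 not called were *RRP8* (-0.47), *UTP20* (-0.34), *MPP10* (-0.21) and *UTP22* (0.00). The list median at 60 min had already been -0.80, and in cdc8cdc20 it was -0.76 relative to *cdc20* cells. The genes for ribosomal proteins themselves, among the brightest on the array, differed little. Of 127, 43 were lower and 0 higher (33.9%, near the 33.0% of all probe sets), with a median of -0.21. The count fell to between 13 and 18 with any 1 of the 4 cultures left out and to 28 after centring arrays on their medians, and many of these genes exist as near-identical pairs that can share probes. Pyrimidine genes were lower as well, with 9 of 14 lower (64.3%, beside 33.0% over all probe sets) and 1 higher. The lowest of these differences (-2.10) was that of *URA3*, which is also a construct mark of strain cdc20. The uracil permease gene *FUR4* was at 9.68 and 9.74 against 11.46 and 11.61 and *URA7*, CTP synthase, at 11.20 and 11.04 against 12.38 and 12.46, while *URA10*, the minor orotate transferase, was higher by 1.78.

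Genes of mating were lower, and so were those of meiosis except after quantile normalization, which gave 10 lower and 10 higher. Of 35 genes of the pheromone response, 20 were lower (57.1%, beside 33.0% over all probe sets) and 4 higher (11.4%, beside 19.1%), *BAR1* among the latter. The a-factor gene *MFA2* was at 12.74 and 12.97 against 14.38 and 14.35, and *FUS1*, of cell fusion, at 8.11 and 8.30 against 9.69 and 9.42 after 10.05 and 10.46 against 9.33 and 8.97 at 60 min. That count was 13 without *cdc20* replicate 1, without *cdc20* replicate 2 or without *cdc8* replicate 1, and 12 after quantile normalization. Of 36 genes of meiosis and sporulation 20 were lower (55.6%) and 4 higher (11.1%), with a median of -0.53. The septin gene *SPR28* was at 6.32 and 6.19 against 8.43 and 8.69, the sporulation kinase gene *SPS1* at 6.43 and 6.67 against 8.37 and 8.69 and *IME1*, the inducer of meiosis, at 6.99 and 7.10 against 8.55 and 8.66. The dimmest probe sets as a whole were lower in *cdc8* arrays. In the lowest eighth by mean level, 333 of 715 were called lower and 80 higher (median -0.46), and the level under which 1% of probe sets lay was 5.95 and 6.19 in the *cdc8* cultures against 6.86 and 7.0 in the *cdc20* cultures. After quantile normalization 10 meiosis genes were lower and 10 higher (median -0.10), so the direction of this list is not stable, and it fell to 11 lower without *cdc8* replicate 1 and 12 without *cdc20* replicate 2. The part of the array floor in these differences was not tested.

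Single genes with large negative differences came from several pathways. *SRO9*, an RNA-binding protein with a La motif, was at 9.97 and 9.43 against 13.17 and 12.71 (difference -3.24, SE 0.35), and its arrays ran from 492 to 1191 in linear units in *cdc8* cells and from 5663 to 11852 in *cdc20* cells. *AFI1*, a protein of polarised growth, was at 9.09 and 9.21 against 12.16 and 12.34, and cdc8cdc20 was at 12.47, like *cdc20* cells. *HEM3*, an enzyme of haem synthesis, was at 6.93 and 7.20 against 9.91 and 10.09, and *HOS2*, a histone deacetylase, at 6.07 and 6.31 against 9.13 and 8.95 with 9.01 in cdc8cdc20. *RFU1*, an inhibitor of the deubiquitinase Doa4, differed by -2.58. *PUF3*, which binds messages for mitochondrial proteins, differed by -2.43 (adjusted p = 0.018), but lost its call with any 1 of the 4 cultures left out. The rest of the 15 lowest were open reading frames of unknown or uncertain function. Of these, *YDR034C-A* (-3.42), *YMR230W-A* (-3.15), *YGR126W* (-2.93) and *YMR105W-A* (-2.39) were at or below 7.21 in both *cdc8* cultures, in the range of the dim probe sets described for meiosis genes. *HEM3* and *HOS2* were at or below 7.21 in both *cdc8* cultures too, so the same limit holds for them. The calls of *YGR126W* and *YMR105W-A* were lost with any 1 of the 4 cultures left out. *YNL058C* (-2.81), *YJL047C-A* (-2.63), *YHL026C* (-2.53) and *YOL014W* (-2.42) were brighter, and *YLR154C-H* (-2.55) is read by a probe set marked as shared.

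Amino acid, purine, sterol and cell wall genes showed no common direction. Of 38 Gcn4 targets of amino acid synthesis 2 were higher and 9 lower, of 20 purine genes 5 and 4, of 31 sterol genes 4 and 4, and of 40 cell wall genes 11 and 10, beside 19.1% and 33.0% over all probe sets. The purine counts were 3 and 2 without *cdc8* replicate 1 and 8 and 5 without either *cse4* culture, and 1 sterol gene was called higher without *cdc20* replicate 1 or without either *cdc8* culture. Without either *cse4* culture the Gcn4 counts were 5 and 16, and with any 1 of the 4 cultures left out the cell wall counts were 7 to 9 and 6 to 8. Within them single enzymes differed strongly. *ADE17*, of the last steps of purine synthesis, was at 12.62 and 12.81 against 9.62 and 10.04, *LEU1*, of leucine synthesis, at 13.61 and 13.38 against 11.50 and 11.51, and *ARG8*, of arginine synthesis, at 9.73 and 9.57 against 11.97 and 11.93. *LEU9*, a minor isozyme of the first step of leucine synthesis, was lower (-1.95), and *GAS3*, a cell wall glucanosyltransferase homolog, was higher by 2.44. The housekeeping list, held for reference, had 6 of 13 genes higher (46.2%) and 3 lower (23.1%), with a median of 0.23. With any of the 4 cultures left out 0 to 1 were higher. *ALG9* differed by -0.50, a call lost with any 1 of the 4 cultures left out, and *UBC6* by 0.68, a call lost without *cdc20* replicate 2 and without *cdc8* replicate 1.

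The cdc8cdc20 culture, which carries the *cdc8* allele in the genetic setting of strain cdc20, gives the levels beside which both groups can be read. Relative to *cdc20* cells 29.3% of probe sets were called in it. Its list medians relative to *cdc20* cells were 2.32 for general stress (*cdc8*: 2.59), 0.96 for histones (*cdc8*: 1.17), -0.69 for SFF targets (*cdc8*: -0.67), 0.08 for iron uptake (*cdc8*: 0.61) and 0.72 for respiratory genes (*cdc8*: -0.30). These medians use the same *cdc20* cultures, so their likeness is not a separate result. Of the leading genes, *HUG1* (-0.13, adjusted p = 0.79), *PLM2* (-0.18, adjusted p = 0.47) and *TSL1* (0.30, adjusted p = 0.75) did not differ between *cdc8* and cdc8cdc20 beyond the spread. *RNR1* was higher in *cdc8* cells by 0.97, *TKL2* by 3.67 and *HXT5* by 3.01, and *CLN3* differed by -1.42 (adjusted p = 0.00872). With 1 culture of cdc8cdc20, genes that did not pass may still differ.

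**Figure D5:**
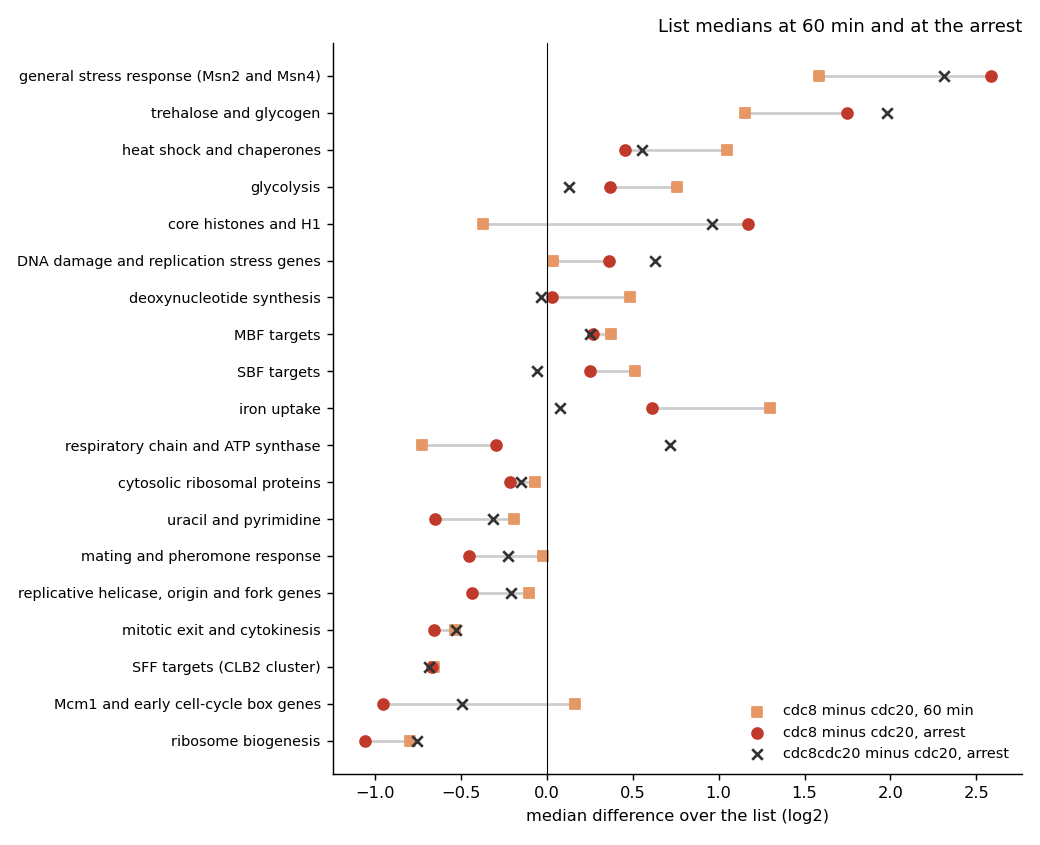
Median log2 difference over the genes of 19 lists (x axis) for cdc8 minus cdc20 at 60 min (squares), cdc8 minus cdc20 at the arrest (circles) and cdc8cdc20 minus cdc20 at the arrest (crosses). The Mcm1 list moves from 0.17 to -0.95 and the histones from -0.37 to 1.17, while the cross of the respiratory genes lies at 0.72, on the other side of 0 from both other symbols.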

How the data were processed

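Gene expression was measured on Affymetrix Yeast 2.0 arrays in 160 samples of 5 strains in 9 cultures. The deposited values are linear intensities, which the authors made with the dChip method in affy 1.32.1 (invariant set normalization over all arrays, perfect-match probes without background correction, Li-Wong summary) after masking probes of _S. pombe_. No counts lie behind them, so precision is limited by the number of cultures. Here log2(intensity + 1) was averaged over 5 arrays per culture: 180 to 260 min for cdc8, 200 to 280 min for cdc20, 255 to 330 min for cse4 and 198 to 270 min for the other strains. limma 3.58.1 in R 4.3.3 was fitted to the culture means of all strains, without a block (residual df 4, prior df 3.39), with Benjamini-Hochberg adjustment over 5716 yeast probe sets and a threshold of 0.05. The change was tested on arrest minus 60 min values. The 184 control probe sets were left out. Of the rest 5498 had a symbol (12 updated through the RefSeq table) and 218 had none. For 47 genes with several probe sets the brightest was used, and none had probe sets called in opposite directions. Array medians were between 1057 and 1107 in cdc8 and between 1096 and 1190 in cdc20. The named genes were those the study names, the 15 called in each direction with the largest difference and cultures that did not overlap, up to 4 called members of each of 46 lists (1180 genes) with their defining members, and the strain marks. Other members and the role groups of the iron and respiratory lists were named after their values were seen. Some of these other members count among the 203 named genes. The members and lists were chosen with earlier results of these data known, so the list counts are descriptions. On simulated data for 5716 probe sets, the arrest fit recovered 79% of log2 changes of 1 and 96% of changes of 2, and the change fit 63% and 98%. False calls were 13 and 5. Changes were planted in a far smaller share of probe sets than the 52.1% called here, and with independent noise, so recovery in these data may differ. Alternatives were other windows and early times, quantile normalization, median centring, pseudocounts of 0 or 32, no dim probe sets, only the 2 strains, a trended robust prior, window medians, a replicate block and each culture left out. Figures were drawn with matplotlib 3.10.9 (Python 3.11.15, numpy 2.4.6, pandas 2.3.3). Promoter sequences and coordinates were not used here.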

Additional observations from a re-analysis of the deposited data

Results flagged for a closer look

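For 10 of the 203 named genes the difference between the strains was called at 60 min and at the arrest with opposite signs. Most of the 203 were named by rule, and some were chosen after their values were seen. The change between the times, tested in its own fit (limma, adjusted p at most 0.05), thus marks a contrast that differs between time points. Each of the 10 genes was read in 2 cultures a strain. The change, cdc8 minus cdc20, was 5.85 for *FMP16* (from -1.66 to 4.18), 3.12 for *CYC7*, the minor cytochrome c (from -1.17 to 1.94), 2.23 for *HHT1* (from -0.96 to 1.27) and 2.22 for *MCD1* (from -0.54 to 1.68). It was 1.54 for *ADE1*, of purine synthesis (from -0.90 to 0.64), and 1.49 for *CIN8*, a spindle motor (from -0.63 to 0.86). On the negative side it was -2.45 for *FUS1* (from 1.1 to -1.35), -2.36 for *MCM3* (from 0.76 to -1.60), -2.29 for *MCM7* (from 1.06 to -1.23) and -1.49 for *LYS4*, of lysine synthesis (from 0.39 to -1.10). The arrest call of *LYS4* was lost with any 1 of the 4 cultures left out. Probe sets outside the named genes were not searched for this pattern. The strains need not be at the same point of the cycle at 60 min. The part of such an offset in these turns of sign was not tested.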

How the results depend on the processing

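With each of the 9 cultures left out in turn, 639 to 1427 probe sets were called higher and 992 to 2375 lower at the arrest. The low ends come from leaving out a culture of the 2 strains (the values are with the main counts) and the high ends from leaving out a *cse4* culture. For the change, leaving out each of the 4 cultures gave 677 to 1192 higher and 1185 to 1828 lower. For the named genes, 3868 of the alternative values at the arrest kept direction and call, 137 lost the call and 5 gained it, and for the change 1823 kept both, 83 lost the call, 69 gained it and 5 turned sign. Those 5 were *NUF2* (0.0898 after quantile normalization and 0.0122 with the mean of 60 and 80 min), *HXT15* (0.39 after quantile normalization), *SPS4* (0.13 after quantile normalization) and *FIT2* (0.57 without *cdc20* replicate 1, and -0.94 without *cdc20* replicate 2), and the cause was not tested. With a replicate block 1038 were called higher and 1793 lower at the arrest, and 1199 and 1848 for the change. The samples share only a number (correlation of deviations 0.13 between *cdc8* and *cdc20* with 2 pairs). Quantile normalization gave 1191 higher and 1515 lower at the arrest (44.0% higher) and moved the median of all probe sets from -0.16 to -0.07. The window of the last 5 arrays gave 915 and 1423, with 10 helicase genes, 21 ribosomal protein genes and 15 mating genes lower and 6 glycolysis genes higher, and the fit of only the 2 strains 1416 and 2344. The comparisons at 60 min and with cdc8cdc20 were run in 1 setting, and the planned promoter description was not run. Signal near the array floor limits genes at the lowest levels.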

Other observations

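A set of genes was listed by a rule made after the data were seen, so that what follows describes its members and tests nothing. The rule asked for differences of at least 1 from *cdc20* cells at 60 min and at the arrest, a change between them that was not called, and a called difference of at least 1 from the 1 culture of cdc8cdc20. It found 22 genes, 10 higher and 12 lower. A change that was not called may still be large, as for *ARN1*, which went from 3.54 at 60 min to 2.55. The higher ones held 5 iron genes (*ARN1*, *ARN2*, *FIT1*, *FIT2* and *FIT3*) and *LSO1*, a small protein linked to iron, at 9.69 and 9.25 against 6.59 and 6.96 in *cdc20* cells and 6.31 in cdc8cdc20. *PDR3*, a regulator of drug efflux pumps, was at 10.33 and 10.35 against 8.91 and 9.10 and 8.97, *TIR1*, an anaerobic cell wall mannoprotein, at 11.69 and 11.26 against 9.91 and 10.11 and 10.22, and *ICY1* and *MF(ALPHA)2* differed from *cdc20* cells by 1.94 and 1.18. The arrest call of *MF(ALPHA)2* was lost without *cdc20* replicate 2 and without *cdc8* replicate 1. The lower ones held *CYC1*, *CYT1* and *COX5A* of the respiratory chain, *UPF3* of nonsense-mediated decay (-1.52), *ARE2* of sterol ester synthesis (-1.59), *RGA1*, which acts on Cdc42 (-1.79), *UFD2*, a ubiquitin chain factor (-1.25), *BRE5* (-1.80), *MIP6* (-2.16), *SRT1* (-1.24), *HOS2* and *YDR524W-C* (-1.61).

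The efflux pump gene *PDR15*, outside that set, was at 13.06 and 13.16 in *cdc8* cells, 9.66 and 9.97 in *cdc20* cells and 10.04 in cdc8cdc20. *YIL014C-A*, a reading frame of unknown function, was at 10.87 and 10.80 against 6.74 and 6.90 and 5.95. In both genes the cdc8cdc20 culture and both *cdc20* cultures lay below either *cdc8* culture.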
